A study of Mus musculus with 9 samples.

Results

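Arginine enters polyamine synthesis when arginase splits it into urea and ornithine, and the genes described here encode the steps from that point on. They are the arginases Arg1 and Arg2, the synthetic enzymes Odc1, Amd1, Srm and Sms, the antizymes Oaz1 and Oaz2 with their inhibitor Azin1, and the acetyltransferase Sat1. The 10 genes were chosen by name out of 20732 in the count table, and all 10 were found there. They were measured in group 2 innate lymphoid cells (ILC2s), lymphocytes of tissues that release type 2 cytokines and carry no antigen receptor, sorted out of pancreas tissue from C57BL6/J mice. One group of mice was given PBS and the other IL-33, an alarmin of the IL-1 family, at 200 ng on day 0 and again on day 1, and tissue was collected on day 5. The gate kept live CD45+ cells that lacked CD3, B220 and lineage markers and carried KLRG1. The sample titles give 4 libraries of the PBS group, there called naive, and 5 of the IL-33 group, and these numbers were followed, although the design text has 5 PBS and 4 IL-33 mice. The labels state neither age nor sex. They do not tie each library to its own mouse, so the p-values below reflect how far these libraries spread, which may be technical.

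Ornithine is decarboxylated to putrescine by ornithine decarboxylase (ODC), which is short-lived and tightly controlled. Aminopropyl groups, made from S-adenosylmethionine by its decarboxylase (the product of Amd1), are then added by spermidine synthase and spermine synthase. When polyamines are plentiful, antizyme is made, binds ODC and delivers it to the proteasome without ubiquitin, while antizyme inhibitor, a relative of ODC without its activity, binds antizyme in its place. Arg1 is well known as a highly expressed gene of ILC2s and of alternatively activated macrophages.

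Antizyme is made only when the ribosome shifts its reading frame at a stop codon early in the message, a step that polyamines promote, so the abundance of Oaz1 and Oaz2 transcripts and the amount of antizyme are separate quantities. The sites are shown because antizyme transcripts were measured here and this step was not. In the mouse reference transcripts of GENCODE M21 on GRCm38, the shift site and 27 bases on each side of it read as follows, with the last sense codon of the first frame and the stop codon in capitals (chr10:80828265-80828324 for Oaz1 and chr9:65686242-65686301 for Oaz2, plus strand).
Oaz1: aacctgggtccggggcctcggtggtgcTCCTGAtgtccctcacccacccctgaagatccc
Oaz2: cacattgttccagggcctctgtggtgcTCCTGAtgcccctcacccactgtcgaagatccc
The annotated coding sequence skips the T at position 4 of the capitals in both genes (positions 80828295 and 65686272), and 49 of the 60 bases (81.7%) are identical.

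Total counts lay between 14216976 and 21020023 per library. With edgeR's quasi-likelihood test (adjusted p below 0.05 over 14405 genes), 1967 genes (13.7%) were higher and 1666 (11.6%) lower with IL-33. Scaling by library size alone moved the median log2 change of all genes from -0.05 to 0.08 and the share of calls that were higher from 54.1% to 67.4%. Genes of pancreatic acinar cells, which make digestive enzymes, accounted for 34.2% of counts in PBS replicate 4 and for 0.103% to 9.60% in every other library. Genes of the erythroid list (6 of 7 measured) took 0.0142% to 0.0343% of counts with PBS and 0.0424% to 0.365% with IL-33, with IL-33 replicates 1, 2 and 3 highest in beta-globin. Mast cell genes (2 of 5 measured, Cpa3 and Fcer1a) took 0.00174% to 0.00486% and 0.0102% to 0.0365%, without overlap. B cell genes (4 of 5 measured) took 3.35e-04% to 0.00286% and 0.00666% to 0.0104%, also without overlap. T cell genes (4 of 6 measured) took 0.0135% to 0.0323% and 0.0266% to 0.0354%, and all 8 ILC2 markers were detected in every library. Apart from an alternative fit with the acinar share as a covariate, the part of these other cells in the results below was not tested.

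Of the 10 genes, 9 passed the filter on low counts. Arg1, Sms and Oaz1 rose with IL-33, and Odc1, Amd1 and Sat1 fell, so that 3 were called higher, beside 13.7% of all genes tested, and 3 lower, beside 11.6%. Srm, Oaz2 and Azin1 did not pass the test, and Arg2 was too low to be tested. The median log2 change of the 9 genes was -0.10, against -0.05 over all genes tested. Scaled by library size alone, 1 of the 9 was called higher (Arg1; 9.25% of all genes tested) and 1 lower (Odc1; 4.47%). The groups did not overlap for Arg1, Sms and Oaz1, which were higher (15.3% of all genes tested), and for Odc1 and Amd1, which were lower (10.8%). In sorted bulk samples fewer cells with a transcript and less transcript per cell cannot be told apart.

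**Figure D1:**
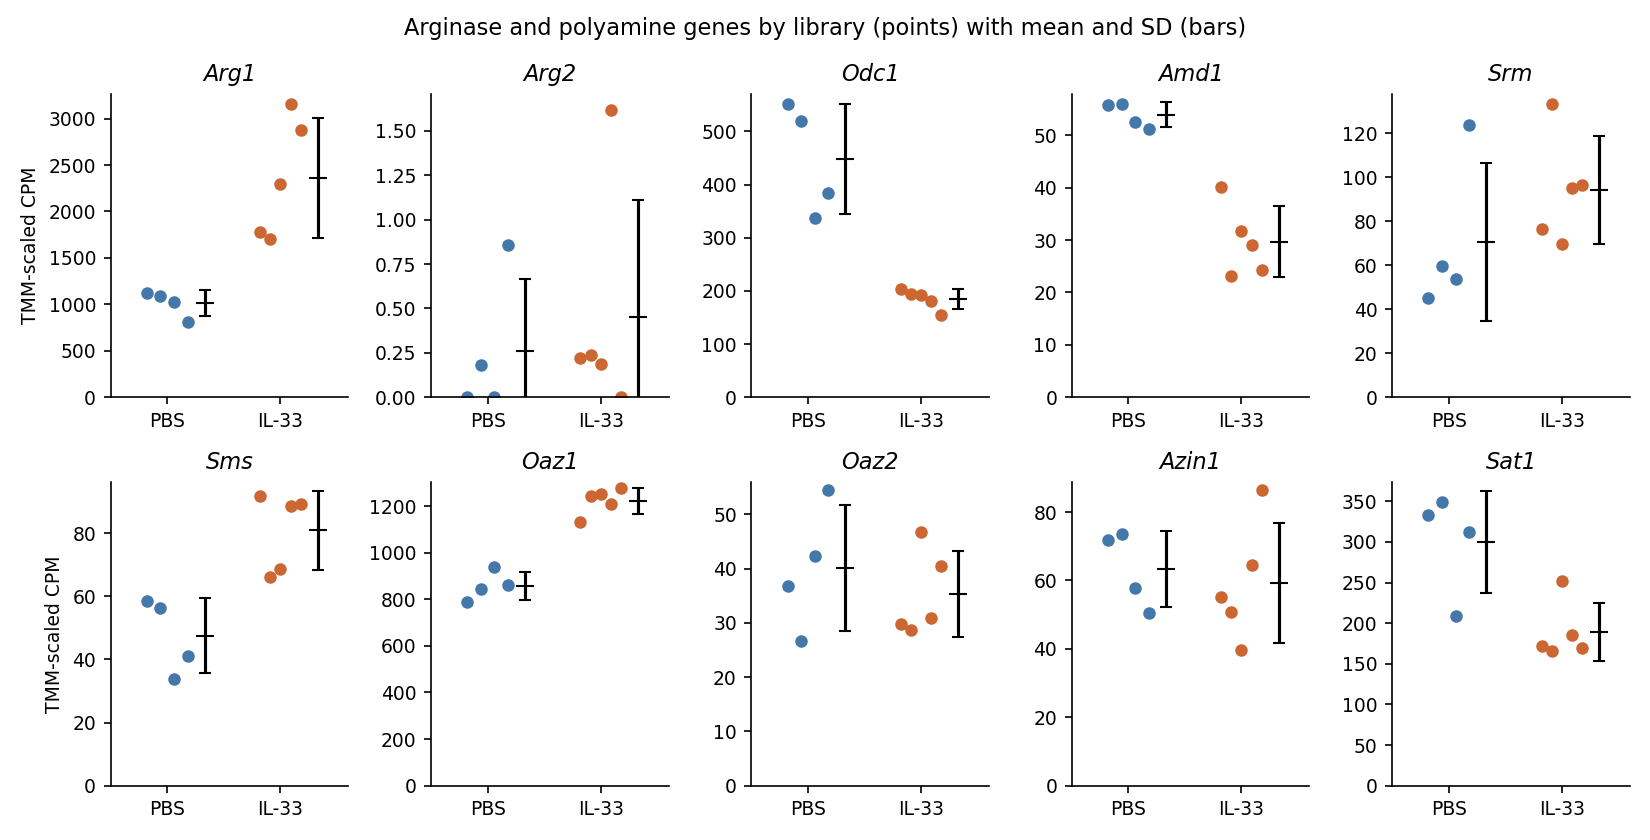
TMM-scaled CPM (counts per 1000000 counts) of the 10 genes, 1 point per library, with 4 PBS libraries in blue and 5 IL-33 libraries in orange, and the mean and SD beside each group in black. Each axis starts at 0; Arg1 lies at 807 to 1126 CPM with PBS and at 1701 to 3153 CPM with IL-33, and Odc1 at 337 to 551 and 155 to 204 CPM.

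Arg1 encodes the cytosolic arginase (ENSMUSG00000019987, chromosome 10, 24915221 to 24927484 on GRCm38, minus strand). Its level was 1126, 1092, 1029 and 807 CPM in PBS replicates 1 to 4 and 1775, 1701, 2297, 3153 and 2881 CPM in IL-33 replicates 1 to 5, in CPM, counts per 1000000 counts with the totals corrected by TMM for differences in composition. Every IL-33 library lay above every PBS library, and IL-33 replicates 4 and 5 lay above the other 3. The mean was 1014 ± 144 CPM with PBS (SD, n = 4) and 2361 ± 648 CPM with IL-33 (SD, n = 5), a log2 fold change of 1.22 ± 0.21 (SE, edgeR adjusted p = 0.00283), or 2.33-fold. Leaving out IL-33 replicates 1, 2 and 3, the libraries rich in beta-globin, the log2 change was 1.58 (edgeR adjusted p = 0.00600). Genes of the macrophage list (8 of 9 measured) summed to 60 to 486 counts per library with PBS and 103 to 1377 with IL-33. Arg1 had 8457 to 22177 and 28649 to 66195 counts, and the part of macrophages in these was not tested. The highest macrophage sum was that of IL-33 replicate 4, the library highest in Arg1, and without that library the log2 change of Arg1 was 1.07 (edgeR adjusted p = 0.00646). The neutrophil markers measured (4 of 7: S100a8, S100a9, Csf3r and Retnlg) had 0 counts in every PBS library and summed to at most 16 counts in an IL-33 library.

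Arg2, the mitochondrial arginase (chromosome 12, 79130777 to 79156301, plus strand), was close to the detection limit. It had 0, 3, 0 and 9 counts in PBS replicates 1 to 4 and 4, 4, 4, 34 and 0 counts in IL-33 replicates 1 to 5. A count of 0 allows up to 3 counts, or 0.133 to 0.152 CPM in these 3 libraries, with counting error only. No fold change was taken for Arg2, whose exons share 285 bases with those of Vti1b on the opposite strand. Over the 9 libraries Arg1 had 310379 counts and Arg2 had 58.

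Odc1, the gene of ODC (ENSMUSG00000011179, chromosome 12, 17544794 to 17551505, plus strand), moved against Arg1. It was at 551, 519, 337 and 384 CPM in the PBS libraries and at 204, 194, 192, 182 and 155 CPM in the IL-33 libraries. The lowest PBS library, replicate 3, lay well above the highest IL-33 library. The mean was 448 ± 103 CPM with PBS (SD, n = 4) and 185 ± 18.9 CPM with IL-33 (SD, n = 5), a log2 fold change of -1.27 ± 0.16 (SE, edgeR adjusted p = 5.79e-04), or 2.42-fold lower. It was called under each of the 20 alternative settings run, with log2 changes from -1.40 to -1.16.

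The promoter of Odc1 is shown because its log2 change was the most negative of the 9 genes. The 250 bases before its RefSeq start (GRCm38.p6, chr12:17544623-17544872, plus strand) hold 4 matches to the GC box GGGCGG on either strand, in capitals, a motif found in 32.7% of 32851 windows of this length and matched also in windows of Oaz2, Amd1, Sat1 and Sms. In GENCODE M21 the gene starts earlier, at 17544794, so the end of this window, with the last match, lies inside the annotated gene.
Odc1: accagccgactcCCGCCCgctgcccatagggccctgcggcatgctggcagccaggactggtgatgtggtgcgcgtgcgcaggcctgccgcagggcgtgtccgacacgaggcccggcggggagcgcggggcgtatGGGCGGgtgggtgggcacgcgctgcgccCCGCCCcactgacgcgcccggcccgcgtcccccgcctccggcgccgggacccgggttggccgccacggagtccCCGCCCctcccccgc
The E-box CACGTG, the site of MYC and its relatives, was found in 6.02% of windows. Among the 7 windows of the 6 genes with one (Odc1, Amd1, Sms, Oaz1, Oaz2 and Sat1) it was matched once, in the window before the more distant of 2 Sms starts (chrX:157492288-157492537, minus strand). That window is given for contrast, with the match in capitals.
Sms: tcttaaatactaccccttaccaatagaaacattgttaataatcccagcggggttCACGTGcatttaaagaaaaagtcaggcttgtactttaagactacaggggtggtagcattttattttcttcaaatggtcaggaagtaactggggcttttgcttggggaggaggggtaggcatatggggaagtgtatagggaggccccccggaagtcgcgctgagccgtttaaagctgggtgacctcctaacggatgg
The cyclic AMP response element TGACGTCA, in 1.55% of windows, had no match in the 7 windows. A CCAAT box, searched as CCAAT on either strand and present in 33.9% of windows, was matched once each in the windows of Oaz1 and of the more distant Sms start. These matches describe letters and were not tested for binding. Bases outside the windows were not searched, so the lack of a match says nothing about sites elsewhere in a gene.

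Amd1, which supplies decarboxylated S-adenosylmethionine (chromosome 10, 40287458 to 40302186, minus strand), fell with Odc1. Its level was 55.8, 56.1, 52.5 and 51.2 CPM with PBS and 40.1, 23.1, 31.7, 29.1 and 24.4 CPM with IL-33. The PBS libraries were nearly level, with a coefficient of variation of 4.46%, and all IL-33 libraries lay below them. The log2 fold change was -0.86 ± 0.18 (SE, edgeR adjusted p = 0.00685), with means of 53.9 ± 2.40 CPM for PBS (SD, n = 4) and 29.6 ± 6.78 CPM for IL-33 (SD, n = 5). Scaled by library size alone it was not called (log2 change -0.76, edgeR adjusted p = 0.102).

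Spermidine and spermine synthase did not follow Odc1 and Amd1 downward. Sms, the spermine synthase (chromosome X, 157443855 to 157492287, minus strand), was at 58.4, 56.4, 33.8 and 41.2 CPM with PBS and at 91.7, 66.1, 68.7, 88.6 and 89.3 CPM with IL-33. The lowest IL-33 library was above the highest PBS library, and the log2 fold change was 0.77 ± 0.20 (SE, edgeR adjusted p = 0.0183). The call was lost with library size alone (log2 change 0.86, edgeR adjusted p = 0.106) and with the 3 beta-globin-rich IL-33 libraries left out (0.92, edgeR adjusted p = 0.0765). Srm, the spermidine synthase (chromosome 4, 148591503 to 148594993, plus strand), was at 45.0, 59.7, 53.6 and 123.9 CPM with PBS and at 76.7, 133, 69.8, 95.3 and 96.6 CPM with IL-33. PBS replicate 4, with 34.2% acinar counts, was the only PBS library among the IL-33 values. The log2 fold change of Srm was 0.42 (95% interval -0.27 to 1.11, edgeR adjusted p = 0.355). Without PBS replicate 4 it was 0.83 ± 0.23 and passed the test (SE, edgeR adjusted p = 0.0310).

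**Figure D2:**
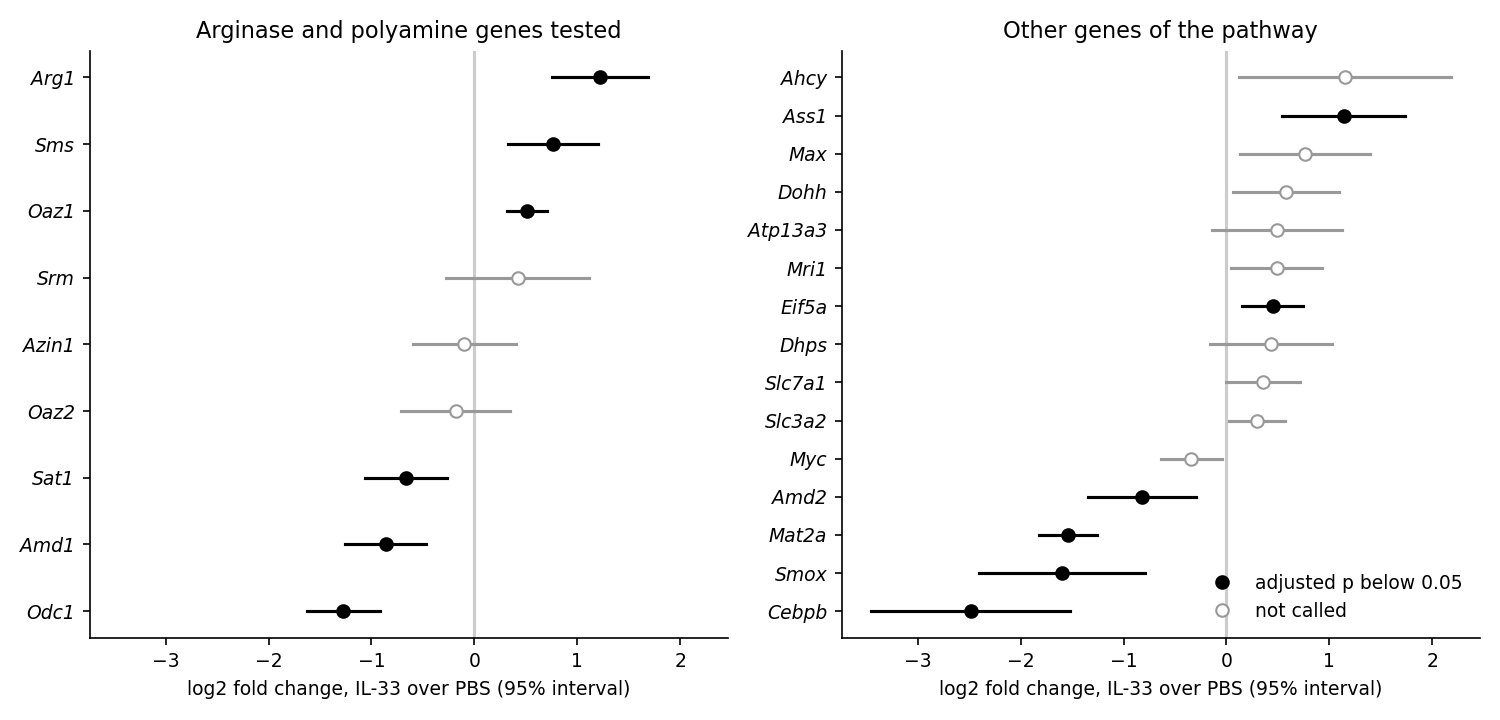
Log2 fold changes of IL-33 over PBS with 95% intervals, with filled points for an adjusted p below 0.05. The left panel holds the 9 genes tested. The right panel holds the tested genes of the neighbouring pathway that the text describes, other than Mycn and Stat6. Arg1 (1.22) and Odc1 (-1.27) stand at the ends of the left panel, and Ahcy (1.15) and Cebpb (-2.49) at those of the right one.

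Oaz1 (chromosome 10, 80826656 to 80829290, plus strand), the more abundant antizyme transcript, rose. It was at 787, 844, 938 and 859 CPM with PBS and at 1132, 1245, 1252, 1209 and 1276 CPM with IL-33. The groups were well apart, with coefficients of variation of 7.24% and 4.58%, and the log2 fold change was 0.51 ± 0.087 (SE, edgeR adjusted p = 0.00283), a rise of 1.43-fold. The merged exons of Oaz1 are 1074 bases long. With each library's trend over gene length removed, the log2 change of Oaz1 was 0.13 (edgeR adjusted p = 0.274), so its call rests on that choice, and it was also lost with library size alone (log2 change 0.64, edgeR adjusted p = 0.113). Oaz2, a less abundant antizyme (chromosome 9, 65668001 to 65690300, plus strand), ranged from 26.7 to 54.6 CPM with PBS and from 28.7 to 46.8 CPM with IL-33, in full overlap. Its log2 fold change was -0.18 (95% interval -0.71 to 0.35, edgeR adjusted p = 0.613).

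Azin1, the antizyme inhibitor (chromosome 15, 38487427 to 38519266, minus strand), was at 71.8, 73.7, 57.8 and 50.5 CPM with PBS and at 55.3, 50.9, 39.7, 64.5 and 86.5 CPM with IL-33. The groups overlapped, with the IL-33 group holding both the lowest and the highest library. The log2 fold change was -0.10 (95% interval -0.60 to 0.41, edgeR adjusted p = 0.789). It turned to 0.26 with the 3 beta-globin-rich IL-33 libraries left out and to 0.23 with the length trend removed, uncalled in both. In the IL-33 group Azin1, like Arg1, was higher in replicates 4 and 5 than in the 3 others. An annotated antisense gene, Gm49077, overlaps Azin1 exons by 358 bases.

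Sat1, which acetylates spermidine and spermine for export or oxidation (chromosome X, 155213132 to 155216449, minus strand), was at 333, 349, 209 and 312 CPM with PBS and at 172, 166, 252, 186 and 170 CPM with IL-33. PBS replicate 3 lay below IL-33 replicate 3, and the other libraries were apart. The log2 fold change was -0.67 ± 0.18 (SE, edgeR adjusted p = 0.0224). This call was lost on leaving out any of PBS replicates 1 and 2 and IL-33 replicates 1, 2 and 5 (log2 change -0.64 to -0.59, edgeR adjusted p 0.0516 to 0.0698). It was also lost with library size alone (-0.55, edgeR adjusted p = 0.217) and with the beta-globin-rich libraries left out (-0.75, edgeR adjusted p = 0.0956).

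Levels between genes were compared per kilobase of merged exons, without the counts of the near-identical copies described below, which change part of the order. With PBS the order was Oaz1 (798 ± 57.8 CPM per kb, SD, n = 4), Arg1 (686 ± 97.2), Sat1 (254 ± 53.1), Odc1 (203 ± 46.9), Srm (52.7 ± 26.9), Oaz2 (19.7 ± 5.71), Amd1 (16.8 ± 0.75), Sms (12.8 ± 3.2), Azin1 (12.6 ± 2.22) and Arg2 (0.182 ± 0.286). The ranges of Oaz1 and Arg1, of Sat1 and Odc1, of Oaz2 and Amd1, and of Sms and Azin1 overlapped, and the other neighbours in the order did not. With IL-33 Arg1 came first at 1599 ± 439 CPM per kb (SD, n = 5), in a range that overlapped that of Oaz1 (1139 ± 52.2). Sat1 (160 ± 30.4), Odc1 (84.0 ± 8.58) and Srm (70.5 ± 18.4) followed, and Odc1 and Srm, well apart with PBS, now overlapped. Among 20571 genes with a length, Arg1 moved from rank 121 to rank 44, Oaz1 from 103 to 75, and Odc1 from 430 to 1182. Amd1, between Oaz2 and Sms with PBS, was below Azin1 with IL-33 (9.25 ± 2.11 CPM per kb), in overlapping ranges.

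Ratios of 2 transcripts within a library do not depend on scaling between libraries. They can still carry a trend over gene length, and no ratio was taken with that trend removed. In the fit with it removed the log2 changes were -1.36 for Odc1, -1.03 for Sat1, 0.23 for Azin1 and 0.13 for Oaz1. Odc1 had 0.700, 0.615, 0.360 and 0.447 counts per Oaz1 count in the PBS libraries and 0.180, 0.156, 0.154, 0.150 and 0.121 in the IL-33 libraries. Decarboxylase transcripts fell against antizyme transcripts in each IL-33 library, by 3.39-fold on average (difference in log2 ratio -1.76, exact permutation test, two-sided, p = 0.00794, the smallest that 4 against 5 libraries allow, adjusted p = 0.0476 over 6 ratios). The ratio of Odc1 to Sat1 was 1.23 to 1.66 with PBS and 0.764 to 1.19 with IL-33, also without overlap (difference in log2 ratio -0.59, exact permutation p = 0.0159, adjusted p = 0.0476). Azin1 to Oaz1 (-0.64, exact permutation adjusted p = 0.0714) and Oaz1 to Oaz2 (0.68, exact permutation adjusted p = 0.0714) did not pass after adjustment. Srm to Sms differed by less than its spread (-0.29, exact permutation adjusted p = 0.657). For Arg1 to Arg2, where 3 libraries had no Arg2 count, the difference was 0.13 (exact permutation adjusted p = 0.929). With any single library left out the adjusted p of the Odc1 ratios was 0.0536 to 0.107, in designs whose smallest unadjusted p is 0.0179 or 0.0286. There an adjusted p below 0.05 needs several ratios at that smallest p together. The lost calls therefore do not show that the ratios depend on any library. The differences stayed at -1.93 to -1.61 for Odc1 to Oaz1 and -0.68 to -0.50 for Odc1 to Sat1.

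**Figure D3:**
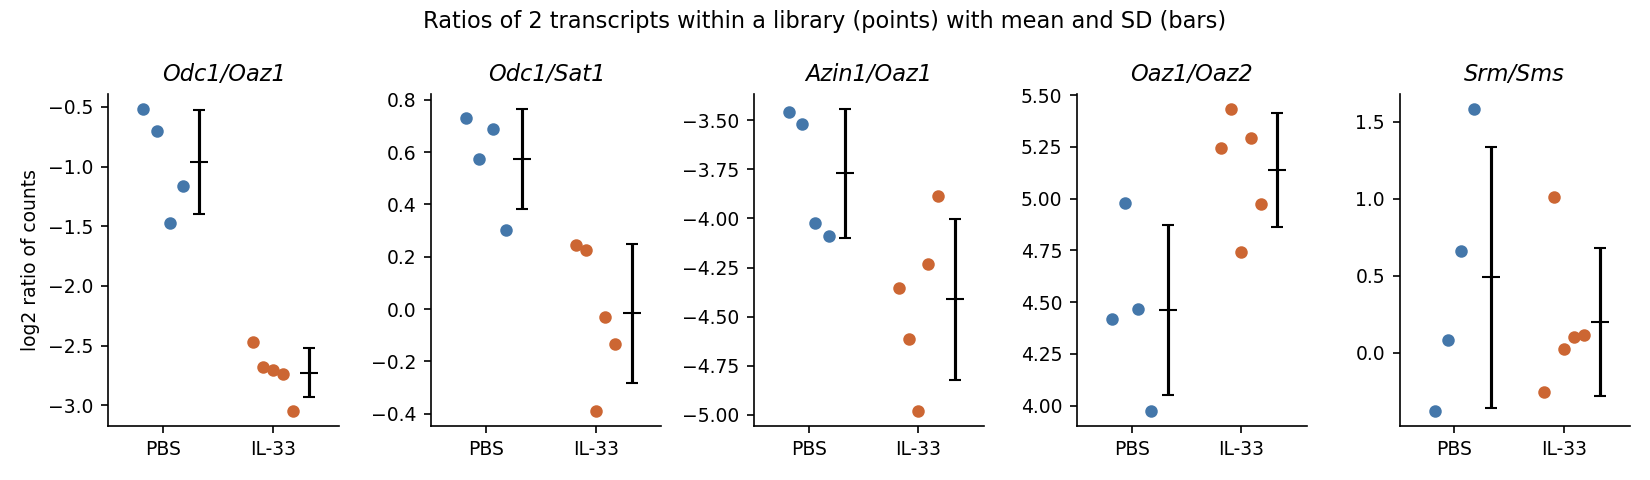
Log2 ratios of the counts of 2 genes within each library for 5 of the 6 ratios, 1 point per library (PBS blue, IL-33 orange), with the mean and SD in black and an axis for each ratio that does not start at 0. For Odc1 over Oaz1 the PBS libraries lie between -1.48 and -0.51 and the IL-33 libraries between -3.04 and -2.47.

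Several of these genes have processed pseudogenes whose transcripts are nearly identical, so that reads could be shared between them. By alignment of the annotated transcripts (at least 90% identity over at least 300 bases on the same strand), Odc1 had 9 such copies in the count table, Amd1 6, Sms 3, and Oaz1, Oaz2 and Sat1 1 each, while Arg1, Arg2, Srm and Azin1 had 0. The copies held 18.7% to 20.9% of the joint counts of Odc1, 43.7% to 47.1% of those of Amd1, 19.4% to 31.5% of those of Sms and 29.6% to 30.7% of those of Oaz1. Oaz1-ps matched Oaz1 at 99.7% of 685 bases, and Amd2, an annotated protein-coding gene, matched Amd1 at 99.6% of 3202 bases. Amd2 was at 27.4 ± 1.68 CPM with PBS (SD, n = 4) and 15.5 ± 4.79 CPM with IL-33 (SD, n = 5), a log2 change of -0.82 (edgeR adjusted p = 0.0298), beside -0.86 for Amd1. With the copies' counts added to each gene, an alternative added once the data had been examined, the log2 changes were -1.26 for Odc1, -0.85 for Amd1, 0.70 for Sms and 0.52 for Oaz1, and each kept its call. The levels of these genes given above, and their order per kilobase, leave out the counts of the copies. With the copies added Oaz1 was at 1126 to 1332 CPM with PBS and 1616 to 1843 CPM with IL-33, and Amd1 at 43.6 to 72.1 CPM with IL-33. Divided by each gene's own length, these put Oaz1 clear above Arg1 with PBS. With IL-33 they put the mean of Oaz1 above that of Arg1, and that of Amd1 above that of Azin1.

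**Figure D4:**
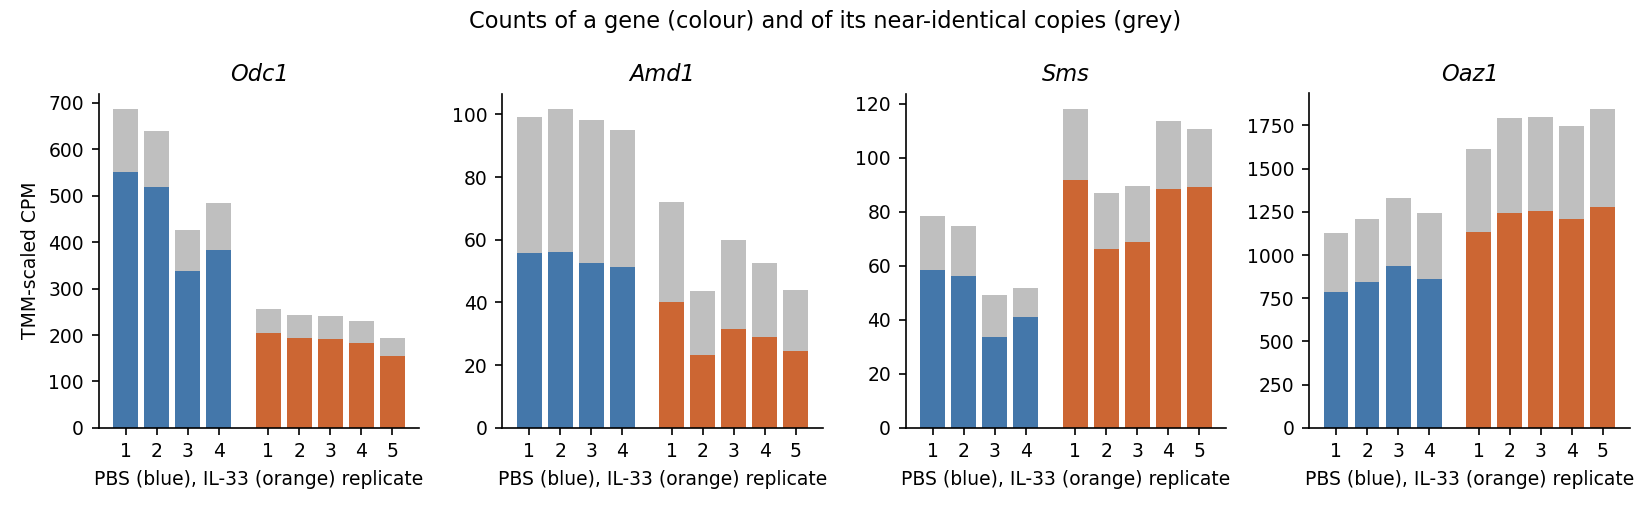
TMM-scaled CPM per library of Odc1, Amd1, Sms and Oaz1 (blue for PBS, orange for IL-33) with the counts of their near-identical copies stacked on top in grey, on axes that start at 0. The copies add 43.7% to 47.1% of the joint Amd1 counts and 29.6% to 30.7% of the joint Oaz1 counts over the libraries.

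The genes with the pattern over the 9 libraries most like that of Odc1, by Pearson correlation of log2(CPM + 1) among 10253 genes with a mean of at least 5 CPM, were Gm17709 (r = 0.997) and Gm7278 (r = 0.995), both among its own near-identical pseudogenes. The next was Adgre5 (r = 0.987), a leukocyte adhesion receptor, at 277 ± 79.2 CPM with PBS (SD, n = 4) and 102 ± 8.46 CPM with IL-33 (SD, n = 5). For Arg1 they were Klrg1 (r = 0.97), the receptor used in the sort, Ndfip1 (r = 0.97), an adaptor of ubiquitin ligases, and Snx5 (r = 0.97), a sorting nexin. These correlations include the difference between the groups and are a description.

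Genes around this pathway were counted in lists by role. Of 36 other genes tested, 3 rose (8.33%) and 4 fell (11.1%), shares no higher than those of all genes tested (13.7% and 11.6%), with a median log2 change of -0.08. Those that fell include Amd2, which could share reads with Amd1. The number that rose was 5 without PBS replicate 4. It was 1 when any of PBS replicates 1 and 2 and IL-33 replicates 2, 4 and 5 was left out.

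In arginine supply and use, 2 of 13 tested genes rose and 0 fell by edgeR (0 also at an unadjusted p below 0.05, by DESeq2 and by limma voom). Ass1, the argininosuccinate synthase that rebuilds arginine from citrulline, was at 46.5, 59.3, 112 and 70.4 CPM with PBS and at 146, 138, 118, 204 and 190 CPM with IL-33. All IL-33 libraries lay above the PBS libraries, and replicates 4 and 5 were highest, as for Arg1. The log2 fold change of Ass1 was 1.14 ± 0.27 (SE, edgeR adjusted p = 0.0127). Slc7a1, a carrier of cationic amino acids, was at 40.1 ± 6.33 CPM with PBS (SD, n = 4) and 51.2 ± 6.69 CPM with IL-33 (SD, n = 5; log2 change 0.35, edgeR adjusted p = 0.140). It passed with the length trend removed (0.87, edgeR adjusted p = 0.00536). Slc3a2, the heavy chain of several amino acid carriers, had a log2 change of 0.30 (edgeR adjusted p = 0.108) and passed without PBS replicate 4 (0.40, edgeR adjusted p = 0.0336). Nos2, the inducible nitric oxide synthase that competes for arginine, had 25 counts in PBS replicate 4, 15 in IL-33 replicate 1 and 0 in the others. Slc7a2, another arginine carrier, had 46 counts in PBS replicate 4, 50 in IL-33 replicate 3 and at most 4 elsewhere.

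Among the other polyamine genes, 0 of 5 tested rose by edgeR (0 also at an unadjusted p below 0.05, by DESeq2 and by limma voom) and 2 fell, Amd2 and Smox. Amd2 is the near-identical copy of Amd1, with which reads could be shared, and whether its fall is its own was not tested. Smox, spermine oxidase, was at 16.6, 15.5, 26.2 and 28.1 CPM with PBS and at 8.12, 6.65, 10.6, 2.91 and 7.45 CPM with IL-33. The IL-33 libraries all lay below the PBS libraries, with a log2 fold change of -1.60 ± 0.36 (SE, edgeR adjusted p = 0.0108). It was not called with the beta-globin-rich libraries left out (log2 change -2.05, edgeR adjusted p = 0.0643). Atp13a3, a transporter of polyamines, had a log2 change of 0.49 (edgeR adjusted p = 0.236), and passed with the length trend removed (1.01, edgeR adjusted p = 0.0212). The call of Amd2 was lost in 7 of the 9 fits that left out 1 library, all but those without IL-33 replicate 1 or 4 (edgeR adjusted p 0.0507 to 0.0691). It was also lost with library size alone (log2 change -0.70, edgeR adjusted p = 0.152), with the length trend removed (-0.74, edgeR adjusted p = 0.0564) and with the beta-globin-rich libraries left out (-1.02, edgeR adjusted p = 0.0703).

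Spermidine also donates the side chain of hypusine, an amino acid found in the translation factor eIF5A. Eif5a rose, with means of 1245 ± 192 CPM for PBS (SD, n = 4) and 1699 ± 202 CPM for IL-33 (SD, n = 5), a log2 fold change of 0.45 ± 0.13 (SE, edgeR adjusted p = 0.0352), without overlap of the groups. The call was lost on leaving out any of PBS replicates 1 and 2 and IL-33 replicates 2, 4 and 5 (edgeR adjusted p 0.0752 to 0.0947) and with the length trend removed (log2 change 0.39, edgeR adjusted p = 0.0611). It was also lost with DESeq2's size factors (0.41, edgeR adjusted p = 0.0561), with library size alone (0.61, edgeR adjusted p = 0.120) and with the beta-globin-rich libraries left out (0.51, edgeR adjusted p = 0.107). Dohh and Dhps, the enzymes that form hypusine, had log2 changes of 0.58 (edgeR adjusted p = 0.0968) and 0.43 (edgeR adjusted p = 0.268), so 1 of 4 genes of this list passed.

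In the methionine cycle and salvage 1 of 9 genes passed by edgeR and by DESeq2, Mat2a, and limma voom called Ahcy and Mri1 higher as well. Mat2a, which makes the S-adenosylmethionine that the Amd1 product consumes, was at 213, 249, 256 and 205 CPM with PBS and at 97.6, 74.0, 74.8, 72.9 and 77.3 CPM with IL-33. The groups were far apart, with a log2 fold change of -1.54 ± 0.12 (SE, edgeR adjusted p = 7.11e-05), and it was called under each of the alternatives run. Ahcy, which clears S-adenosylhomocysteine, was at 9.29 to 48.3 CPM with PBS and 32.0 to 62.7 CPM with IL-33 (log2 change 1.15, edgeR adjusted p = 0.0960). Its highest PBS library was replicate 4, without which the log2 change was 1.87 (edgeR adjusted p = 0.00358). Ahcy also passed with limma voom (1.66, adjusted p = 0.0111) and with library size alone (1.57, edgeR adjusted p = 0.0130). Mri1, of methylthioadenosine salvage, had a log2 change of 0.49 (edgeR adjusted p = 0.0986), and 0.60 with limma voom (adjusted p = 0.0439).

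Of 5 transcription factors known to act on Odc1 or Arg1, Cebpb, a factor that binds the Arg1 enhancer in macrophages, fell, with means of 14.9 ± 7.34 CPM for PBS (SD, n = 4) and 2.65 ± 1.08 CPM for IL-33 (SD, n = 5), a log2 fold change of -2.49 ± 0.43 (SE, edgeR adjusted p = 0.00316). It was not called with the beta-globin-rich libraries left out (log2 change -2.12, edgeR adjusted p = 0.0846). Myc, a known activator of Odc1, was at 269, 228, 226 and 199 CPM with PBS and at 155, 154, 209, 193 and 199 CPM with IL-33, in overlap (log2 change -0.34, edgeR adjusted p = 0.0902). Myc passed with DESeq2 (-0.38, adjusted p = 0.0218) and with edgeR after the stricter filter of 5 CPM in at least 4 libraries (-0.38, adjusted p = 0.0490). Its partner Max had a log2 change of 0.76 (edgeR adjusted p = 0.0761) and passed with DESeq2 (0.73, adjusted p = 0.0447). Cebpb was the 1 gene of this list that edgeR called. Stat6, also of this list and named here outside the rule for naming genes, was not called (log2 change -0.21, edgeR adjusted p = 0.447). Mycn, a relative of Myc named here after its values were seen, was called lower by DESeq2 (-1.41, adjusted p = 0.0409) and limma voom (-1.74, adjusted p = 0.0268) and not by edgeR (-1.37, adjusted p = 0.0962).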

How the data were processed

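RNA of sorted ILC2s, 5 to 15 ng per library, was made into libraries with a low-input kit and read as paired reads of 150 nt, per the labels' protocols. The authors deposited whole-number counts per Ensembl gene, 1 column per library. The submitters' processing notes list DESeq2, Salmon 1.6.0, STAR 2.7.7a, Trimmomatic 0.39, FastQC 0.11.9 and Picard, and the build GRCm38.p6. They give no roles, and the strand setting is not stated in any source used. Symbols matched 20571 of 20732 genes (99.2%), and lengths came from GENCODE M21.

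The test was edgeR 4.0.16's two-sided quasi-likelihood F-test (R 4.3.3, robust, TMM scaling) after filterByExpr at a minimum of 10 counts, with Benjamini-Hochberg adjustment over 14405 genes and a threshold of 0.05. The SE was taken from the fold change and the F statistic. Tested on simulated data of 13862 genes, it called 20 of 99 genes that were changed by 2-fold (20.2%), 46 of 93 that were changed by 4-fold (49.5%) and 1 unchanged gene. Only those 99 and 93 genes were changed, against 1967 and 1666 called in the data, and the adjustment is stricter when fewer genes change. These shares are therefore not the power of the test on the data. Ratios used counts plus 0.5 and all 126 splits (SciPy 1.17.1). All 16 pairs of libraries within a group differed beyond sampling noise. Copies were found with BLAST 2.17.0. Promoters come from RefSeq on GRCm38.p6.

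The genes and lists were chosen with earlier results of these data known. Named were the 10 genes, the 3 of each pathway list with the smallest adjusted p, Ass1, Nos2, Slc7a1, Slc7a2, Amd2, Eif5a and Myc, and the 3 genes most like Arg1 and Odc1. A gene that this rule names is not reported here. Alternatives were other scalings, filters and tests (DESeq2 1.42.0, limma 3.58.1 voom), a replicate block, the acinar share, a length correction and libraries left out.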

Additional observations from a re-analysis of the deposited data

Results flagged for a closer look

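In a group of 4 or 5 libraries, 1 value was set apart where its gap to the nearest other value took more than 0.829 or 0.71 of the group's range. Of 32 groups of values of the 10 genes and 6 ratios, 2 held such a library, and about 1 in 20 groups would by chance. Arg2 in IL-33 replicate 4 was at 1.62 CPM (34 counts), against at most 0.237 CPM in the other IL-33 libraries, a gap of 0.853 of the range. That library also had the highest sum of macrophage markers (1377 counts, against at most 345 in another IL-33 library), whose part in this value was not tested. Sat1 in IL-33 replicate 3 was at 252 CPM, against 166 to 186 CPM in the other IL-33 libraries, a gap of 0.766 of the range. That library was also the highest in erythroid markers (0.365% of counts), whose part was not tested. Without it Sat1 kept its call.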

How the results depend on the processing

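Odc1 and Mat2a kept direction and call in all 20 alternatives, and Arg1 in all but the replicate block (log2 change 1.10, edgeR adjusted p = 0.0527). With the replicate block 791 genes were higher and 666 lower, 0 and 1 of the 10 genes and 0 and 2 of the other pathway genes, while Arg1, Sms and Oaz1 had log2 changes of 1.10, 0.75 and 0.50. Whether equal numbers pair the libraries is not known, and number 5 occurs only with IL-33. Deviations of equal numbers from their group means correlated at -0.115 to 0.0691. So few values cannot exclude a shared batch. With library size alone 644 genes were lower, 1 of the 10 genes was higher and 1 lower, and Oaz2 turned to 0.033. With the log2 acinar share as a covariate 2034 genes were higher and 1539 lower, and the same 3 and 3 of the 10 genes were called as without it. There Srm (log2 change 0.44, edgeR adjusted p = 0.310) and Ahcy (1.24, edgeR adjusted p = 0.0755) stayed uncalled. DESeq2's test called 2588 genes lower. Other pathway genes called higher numbered 1 with DESeq2's size factors and 5 with limma voom. With the 3 beta-globin-rich IL-33 libraries left out 732 genes were higher and 664 lower, with 1 and 1 of the other pathway genes, a design of 4 against 2 libraries in which calls are harder to reach. Azin1 turned to 0.26 there, to 0.23 with the length trend removed and to 0.019 without IL-33 replicate 3, and ranged from -0.27 to 0.019 with single libraries left out. With single libraries left out, other pathway genes called higher ranged from 1 to 5, and log2 ratios from -1.93 to -1.61 for Odc1 to Oaz1, -0.68 to -0.50 for Odc1 to Sat1, -1.01 to 0.87 for Arg1 to Arg2 and -0.58 to 0.075 for Srm to Sms. Without the libraries high in beta-globin the first 2 were -1.93 and -0.66, uncalled in a design whose smallest p is 0.0667. As a difference of medians, Oaz1 to Oaz2 was 0.80 and passed (exact permutation adjusted p = 0.0476), and Arg1 to Arg2 was -1.02. Where no value is given as the cause of a change with a setting, the cause was not tested. Depth limits Arg2, Nos2 and Slc7a2, with 0 counts in several libraries.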
